A study of Mus musculus with 6 samples.

Results

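Heat shock proteins and chaperonins are the proteins that fold other proteins and keep them folded. The genes described here are the rows of the count table whose symbols start with Hsp90, Hspa, Hspb or Dnaj with their family number or letter, together with Hspd1, Hspe1, Hsph1, Tcp1 and the other Cct genes from Cct2 to Cct8. After 3 rows marked as pseudogenes were dropped, 80 of the 48397 genes in the table were members. The rule reads gene symbols and no measured value. RNA was sequenced from 3 libraries of BALB/c mice with the WT genotype and 3 libraries of SKG mice, which carry a mutation that weakens Zap70, the kinase acting directly below the T cell receptor, on the BALB/c background. The mice of both strains were 8 to 10 weeks old and no treatment was labelled. Each library came from stage 0 iNKT cells, the earliest thymic stage of invariant natural killer T cells after selection on CD1d, sorted from the pooled thymi of 3 mice with about 1000 cells recovered. A replicate is therefore a pool, and differences between single mice were not measured. The comparison asks how weaker T cell receptor signalling is reflected in the RNA of these cells.

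Chaperones work in relays. HSP70 proteins bind short exposed stretches of unfolded chains and are switched by J-domain proteins, the DNAJA, DNAJB and DNAJC families, which bring clients and trigger ATP hydrolysis, while HSP110 proteins exchange the nucleotide. HSP90 finishes the maturation of kinases and receptors, among them Src-family kinases such as Lck in T cells. The ring-shaped chaperonins, CCT in the cytosol and HSP60 with HSP10 in mitochondria, fold proteins inside a closed chamber. Actin and tubulin are clients of CCT. The endoplasmic reticulum has its own set, led by BiP (Hspa5) and GRP94 (Hsp90b1), which fold secreted and surface proteins. Heat shock genes are classically induced through HSF1 at heat shock elements, and the genes of the endoplasmic reticulum through elements bound by ATF6 and XBP1.

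Both kinds of element were looked for in RefSeq promoter windows (GRCm38.p6), to show what the members that stood apart in the counts carry before their starts. Of the 80 members, 65 had a window, and the 250 bases before each start were searched. The endoplasmic reticulum stress element, taken as CCAAT and CCACG separated by 9 bases on either strand, was found in Hspa5, Hsp90b1 and Dnajc3 alone among the members searched. Hspa13 and Dnajc5, which stood apart in the counts, had no window and were not searched. Windows with the element made up 3.57% of the members' 84 windows, against 0.113% of all 32851 windows. The element was chosen after values had been seen and as one of genes of the endoplasmic reticulum, so these shares are a description. The element of Hspa5 started 65 bases before the listed start, those of Hsp90b1 212 and 107 bases before it, and that of Dnajc3 105 bases before it. Dnajb11 had no match in these letters. The sequences are shown for the genes of the endoplasmic reticulum with an element and for Dnajb11 as the contrast, 5′ to 3′ in the direction of the gene, with the whole element in capitals, and only bases outside annotated exons are shown where the window allowed it.
Hspa5 (chr2:34772020-34772048, + strand): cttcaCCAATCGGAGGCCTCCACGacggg
Hsp90b1 (chr10:86705510-86705694, - strand): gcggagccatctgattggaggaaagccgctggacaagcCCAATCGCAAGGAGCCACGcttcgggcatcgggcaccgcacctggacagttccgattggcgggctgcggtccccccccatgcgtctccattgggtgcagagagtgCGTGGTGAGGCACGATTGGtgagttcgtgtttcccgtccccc
Dnajc3 (chr14:118937682-118937931, + strand): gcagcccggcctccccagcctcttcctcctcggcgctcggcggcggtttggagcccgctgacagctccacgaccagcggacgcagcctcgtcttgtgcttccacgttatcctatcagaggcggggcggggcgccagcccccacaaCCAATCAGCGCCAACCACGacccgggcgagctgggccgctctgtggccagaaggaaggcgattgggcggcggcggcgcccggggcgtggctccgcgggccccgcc
Dnajb11 (chr16:22857670-22857844, + strand): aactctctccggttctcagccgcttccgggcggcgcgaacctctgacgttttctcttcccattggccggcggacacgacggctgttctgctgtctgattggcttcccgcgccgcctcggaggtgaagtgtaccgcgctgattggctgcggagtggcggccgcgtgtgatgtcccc

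The heat shock element was searched as 2 facing units, GAANNTTC or TTCNNGAA, which read the same on both strands. At least 1 match was found in 21.4% of the members' windows and in 12.8% of all windows. Its longer form, with 3 alternating units, was found in 4.76% of the members' windows and 0.466% of all windows, and the members with it were Hspd1, Hspe1 and Dnajb6. Hspd1 and Hspe1, the mitochondrial chaperonin and its lid, lie head to head on chromosome 1, and the same run of units stands in the windows of both. It is shown from the side of Hspe1, together with the element of Hsph1, a heat-inducible HSP110, with the matched units in capitals.
Hspe1 (chr1:55088053-55088082, + strand): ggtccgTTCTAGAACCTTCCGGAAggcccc
Hsph1 (chr5:149636351-149636380, - strand): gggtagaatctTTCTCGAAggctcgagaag
A match in these letters is a description of the window and was not tested as a binding site.

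The libraries held 37176544 to 43115544 reads on genes, and from 10835 to 14791 genes had at least 10 reads. Values are given as CPM, the reads of a gene scaled to a common library size after TMM normalization, listed for the BALB/c replicates 1 to 3 and then for the SKG replicates 1 to 3. The T cell genes Cd3e and Trac were abundant in every library. Of the markers of the sort, Cd69 stood at 152 to 391 CPM over all libraries. Cd24a was low and scattered, at 52.4, 7.31 and 15.6 CPM in BALB/c and 31.9, 88.6 and 90.7 CPM in SKG, and Cd44, low in the gate, was at 0.103 to 14.5 CPM, above Cd24a in BALB/c replicate 2. Cd8a, which the gate left out, was at 20.4 to 121 CPM. The summed CPM of 6 stage 0 markers was 3277 to 4046 in BALB/c and 2783 to 3177 in SKG. Sums of the double-positive thymocyte markers were 66.5 to 437 in BALB/c and 71.1 to 221 in SKG, those of myeloid markers 95.7 to 217 and 69.5 to 238 with Cd14 at 0 in every library, those of B cell markers 1.73 to 6.84 and 3.11 to 8.38, those of erythroid markers 0.027 to 69.7 and 0.0515 to 0.691 with Alas2 at 0, and those of thymic epithelial markers 28.1 to 41.4 and 10.0 to 86.9 with Krt5 and Psmb11 at 0. The RNA level of Zap70 does not check the labels, since the SKG allele is a point mutation. Nothing in the labels says more than that the samples of a genotype were independent pools, and p-values measure the spread between these pools.

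In stage 0 iNKT cells, 65 of the 80 members passed the filter on low counts, and HSP90 and CCT gave the largest sums of their reads. At least 1 read was found on 77 members, some with only a few reads in a single library. The 15 that did not pass were Hspa1a, Hspa1l, Hspa12a and Hspa12b, the small heat shock genes Hspb1, Hspb2, Hspb3, Hspb7, Hspb8 and Hspb9, and Dnajb8, Dnajc5b, Dnajc5g, Dnajc22 and Dnajc28, among which Hspb3, Hspb9 and Dnajc22 had 0 reads in every library. Summed over all members, expression was 17558, 17151 and 14409 CPM in BALB/c and 13446, 13887 and 14921 CPM in SKG. The mean was 14.0% lower in SKG, at 14085 ± 757 CPM against 16372 ± 1713 CPM (SD, n = 3 each), with SKG replicate 3 above BALB/c replicate 3. When CPM were taken on library totals without TMM scaling the sums did not overlap, at 13873 ± 564 against 16497 ± 1240 CPM. Without Hsp90ab1 and Hspa5, the pair with the most reads, the sum of the other 78 members was 11.7% lower.

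No member was called differentially expressed. With edgeR's quasi-likelihood test, where a call needed an FDR under 0.1 and a 1.5-fold difference, 0 of 65 members were called, as were 0 of all 12312 genes tested (0%), and the lowest adjusted p of a member was 0.686 against 0.212 over all genes. At an unadjusted p under 0.05, 4 members were lower and 2 were higher in SKG, where 2.38% and 3.07% of all genes were. DESeq2 called 0 members with or without shrinkage of fold changes, while over all genes it called 0.815% lower and 0.851% higher with shrinkage and 1.35% lower and 1.23% higher without it. DESeq2, in both forms, and limma-voom each gave 8 members an unadjusted p under 0.05. These are 10.8% of the 74 members with a DESeq2 p, against 4.71% of all genes with shrinkage and 5.91% without it, and 12.3% of the 65 with a limma-voom p, against 7.86% of all genes.

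By sign, 44 of the 65 tested members were lower in SKG, or 67.7%, where 51.0% of all genes were lower. Their median log2 fold change, SKG over BALB/c, was -0.18, against -0.02 over all genes. In 11 members (16.9%) all SKG libraries lay below all BALB/c libraries, where this held for 7.12% of all genes, and in 2 members (3.08%) they lay above, where it held for 6.77%. Among genes with a mean of at least 100 CPM, a level chosen after values had been seen, 7 of 33 members (21.2%) lay apart and lower, against 6.24% of all genes at that level, and 1 (3.03%) lay apart and higher, against 10.8%. The 11 lower genes were Hspa5, Hspa13, Hsp90b1 and Dnajb11 of the endoplasmic reticulum, Hspd1 and Hspe1 of mitochondria, the CCT subunits Cct2 and Cct7, and Hspa4l, Dnajc15 and Dnajc17. The higher genes were Dnajc5 and Dnaja3. With median-ratio scaling in place of TMM, 9 members lay apart and lower, and with library size alone 12. Leaving out 1 library moved the number of lower genes between 11 and 20, the 20 without BALB/c replicate 3 and 17 without SKG replicate 1, in fits of fewer libraries that separate more easily. The share of all genes was not counted in these settings.

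**Figure D1:**
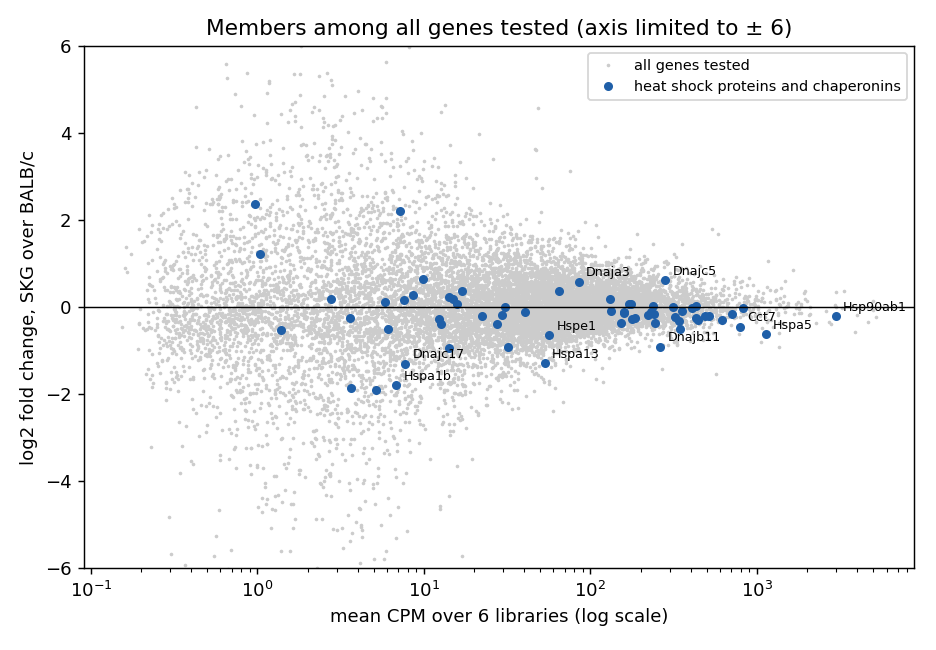
Each point is a gene, with its mean CPM over 6 libraries on a log axis and its log2 fold change, SKG over BALB/c, on the vertical axis; grey points are all 12312 genes tested and blue points the 65 tested members. The members above 100 CPM form a narrow band mostly just below 0, while those at low level spread widely; 49 grey points and 0 members lie past the limits of the axis.

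Chaperones of the endoplasmic reticulum were lower in SKG as a sum. A set of 8 members that act in its lumen (Hspa5, Hsp90b1, Hspa13, Dnajb9, Dnajb11, Dnajc1, Dnajc3 and Dnajc10), grouped after values had been seen, summed to 3014, 3064 and 2392 CPM in BALB/c and to 2016, 1964 and 1918 CPM in SKG. The groups did not overlap, and the mean was 30.4% lower in SKG, 1966 ± 49.0 against 2823 ± 374 CPM (SD, n = 3 each). The SKG pools lay close together and the BALB/c pools did not, with BALB/c replicate 3 the lowest of its genotype. By sign 7 of the 8 were lower, with a median log2 fold change of -0.34, and 4 did not overlap, all lower. Over all genes 51.0% were lower by sign and 7.12% lay apart and lower, and since the set was grouped with values in view its counts are a description. The other 27 members at 100 CPM or more summed to 12980 ± 1368 CPM in BALB/c and 11570 ± 807 CPM in SKG, 10.9% lower.

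Hspa5 encodes BiP, the HSP70 of the endoplasmic reticulum, and lies on chromosome 2 at 34771970 to 34777547 (GRCm38, + strand). It stood at 1435, 1544 and 1134 CPM in BALB/c and at 901, 987 and 792 CPM in SKG. Every SKG library was below every BALB/c library, with BALB/c replicate 3 the nearest to them. The level in SKG was 34.8% lower, with a log2 fold change of -0.62 ± 0.16 (SE), an unadjusted edgeR p of 0.00726 and an adjusted p of 0.686. Leaving out any 1 library kept the log2 fold change between -0.73 and -0.53.

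Dnajb11, on chromosome 16 at 22857845 to 22879634, encodes a J-domain partner of BiP. Its values were 477, 272 and 279 CPM in BALB/c and 182, 173 and 191 CPM in SKG. The SKG pools were nearly alike, and BALB/c replicate 1 was far above the other BALB/c pools. The log2 fold change was -0.91 ± 0.25 (SE), with an unadjusted edgeR p of 0.00887 and an adjusted p of 0.722. Without BALB/c replicate 1, the value was -0.59.

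Hspa13, on chromosome 16 at 75745431 to 75767104, encodes a microsomal relative of HSP70. It was measured at 69.8, 117 and 40.0 CPM in BALB/c and at 33.1, 25.6 and 33.9 CPM in SKG. BALB/c replicate 3 lay much nearer to the SKG pools than to BALB/c replicate 2. The log2 fold change was -1.29 ± 0.44 (SE), with an unadjusted edgeR p of 0.0242 and an adjusted p of 0.834, and was -0.84 without BALB/c replicate 2.

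Hsp90b1, on chromosome 10 at 86690209 to 86705509, encodes GRP94, which folds integrins and Toll-like receptors. Its levels were 458, 539 and 470 CPM in BALB/c and 371, 388 and 429 CPM in SKG. Some 10.3% of its annotated exon bases overlap a gene on the other strand, and the authors' alignment was unstranded. Other named members had such overlaps too, among them Cct6a at 12.5% with 1 gene, and Tcp1 at 11.4% with 1 gene and 2.80% with another. The groups did not overlap, though SKG replicate 3 came close to BALB/c replicate 1, and the log2 fold change was -0.31 ± 0.13 (SE; edgeR adjusted p = 0.947). The remaining residents overlapped between the genotypes. Dnajc3, an inhibitor of the kinase PERK that carries a stress element like those of Hspa5 and Hsp90b1, stood at 153, 233 and 196 CPM in BALB/c and at 211, 145 and 130 CPM in SKG. Its log2 fold change was -0.26 ± 0.26 (SE). Dnajb9, a classical target of XBP1, was scarce and scattered, from 7.26 to 20.7 CPM in BALB/c and from 4.53 to 29.2 CPM in SKG.

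**Figure D2:**
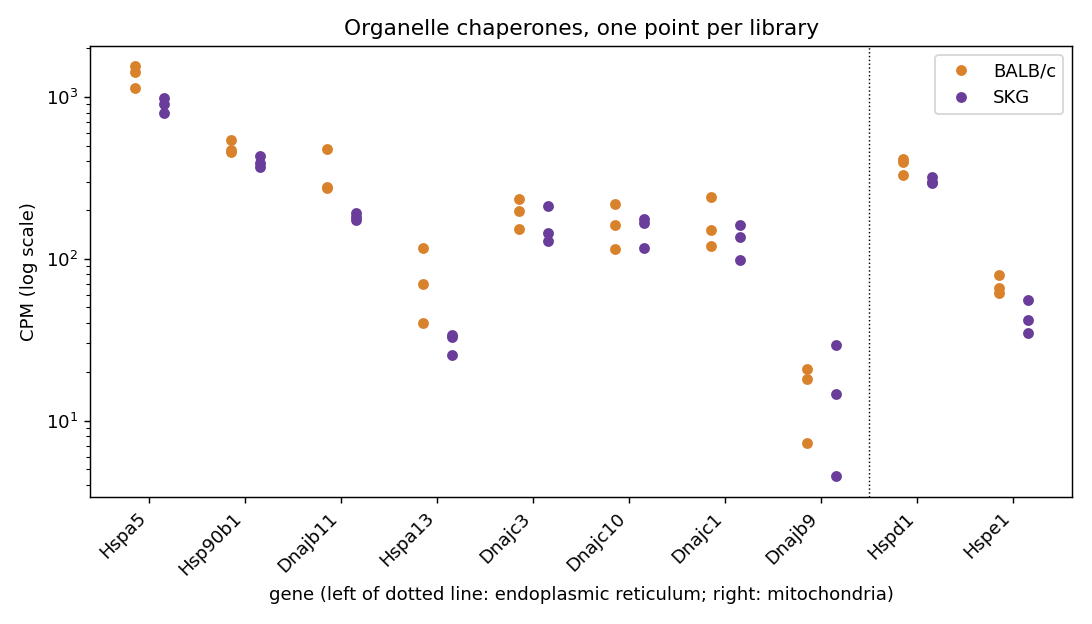
CPM on a log axis for 8 genes of the endoplasmic reticulum, left of the dotted line, and for the mitochondrial chaperonin pair, right of it, with 1 point per library in orange for BALB/c and purple for SKG. Hspa5, Hsp90b1, Dnajb11, Hspa13, Hspd1 and Hspe1 show no overlap, whereas Dnajc3, Dnajc10, Dnajc1 and Dnajb9 do.

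In the mitochondrial chaperonin, both genes were lower in every SKG library. Hspd1, the HSP60 ring, had 416, 399 and 328 CPM in BALB/c and 292, 299 and 321 CPM in SKG. Its groups were separated by a narrow margin, between BALB/c replicate 3 and SKG replicate 3, with a log2 fold change of -0.33 ± 0.15 (SE; edgeR adjusted p = 0.951). Hspe1, the HSP10 lid, had 79.5, 66.1 and 61.2 CPM in BALB/c and 42.1, 34.8 and 55.5 CPM in SKG, with a log2 fold change of -0.64 ± 0.30 (SE; edgeR adjusted p = 0.952). SKG replicate 3 was again the highest of its genotype. The pair summed to 450 ± 54.4 CPM in BALB/c and 348 ± 24.8 CPM in SKG (SD, n = 3 each). Hspd1 and Hspe1 share the promoter stretch shown above, and 112 exonic bases of the annotation overlap, 7.60% of the exons of Hspe1, so that reads falling there cannot be told apart without strand. The ratio of Hspe1 to Hspd1 was 0.181 ± 0.0135 in BALB/c and 0.144 ± 0.0280 in SKG (SD, n = 3 each), with overlapping values.

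Among the HSP90 genes, cytosolic HSP90 did not separate the genotypes. Hsp90ab1, the constitutive form and the most abundant member, stood at 3383, 3518 and 2636 CPM in BALB/c and at 2420, 2659 and 3183 CPM in SKG. BALB/c replicate 3 lay within the SKG range, and the log2 fold change was -0.21 ± 0.16 (SE; edgeR adjusted p = 0.991). Hsp90aa1, the inducible form, was at 610, 562 and 394 CPM in BALB/c and 349, 494 and 510 CPM in SKG, again with overlap and a log2 fold change of -0.21 ± 0.23 (SE). The ratio of Hsp90aa1 to Hsp90ab1 was alike in both genotypes, 0.163 ± 0.0157 in BALB/c and 0.163 ± 0.0209 in SKG (SD, n = 3 each). Per kilobase of annotated exon Hsp90ab1 was also the highest member, at 1060 CPM per kilobase in BALB/c and 918 in SKG, followed in BALB/c by Hspa5 at 324, Cct8 at 271 and Cct5 at 248. Hspa5 stood above Cct8 in BALB/c, and in SKG the order was Cct8 at 266, Hspa5 at 211 and Cct5 at 202. These lengths join all annotated exons of a gene, so the order depends on the annotation. Before division by length, Hspa5 stood above Cct8 in SKG too, at a mean of 893 against 820 CPM.

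The HSP70 group summed to 2599, 2590 and 1941 CPM in BALB/c and 1721, 1794 and 1482 CPM in SKG, 29.9% lower in the mean, and Hspa5 held more of it than any other gene. Hspa8, the constitutive cytosolic HSC70, spanned 570, 420 and 212 CPM in BALB/c but only 252, 296 and 307 CPM in SKG. The range within BALB/c contained all SKG values, and its log2 fold change of -0.49 ± 0.34 (SE; edgeR adjusted p = 0.988) was within the spread of libraries. Hspa9, the mitochondrial mortalin, was at 217, 282 and 324 CPM in BALB/c and 301, 212 and 123 CPM in SKG, with overlap and the widest spread within genotypes of all members at 100 CPM or more (CV 30.9%).

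The stress-inducible pair Hspa1a and Hspa1b, near-identical neighbours on chromosome 17, had few counted reads. Only alignments of mapping quality 10 or more were counted, so reads that fit both copies may have been left out. The counts may therefore fall short of the level of the pair. Their summed reads were 973, 269 and 53 in BALB/c and 337, 110 and 520 in SKG, at most 23.6 CPM. For Hspa1b alone the BALB/c pools gave 971, 267 and 44 reads and the SKG pools 337, 7 and 20, while for Hspa1a they gave 2, 2 and 9 and then 0, 103 and 500. The split between the copies differed from library to library, and no direction can be given for either. Hspb1, the inducible small heat shock protein HSP27, had 0 reads in all BALB/c libraries and 4, 18 and 0 reads in SKG, and the 8 small heat shock genes together gave 12.1 ± 4.88 CPM in BALB/c and 5.81 ± 2.54 CPM in SKG (SD, n = 3 each).

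HSP110 genes, the exchange factors, were close in both genotypes, with sums of 842 ± 86.3 CPM in BALB/c and 780 ± 47.2 CPM in SKG (SD, n = 3 each). Hspa4 was at 289, 508 and 425 CPM in BALB/c and 391, 391 and 431 CPM in SKG, a log2 fold change of -0.01 ± 0.22 (SE) whose sign changed with median-ratio scaling and other settings. Hsph1, HSP105, spread from 348 to 233 and 122 CPM in BALB/c and lay at 194, 196 and 231 CPM in SKG, with a log2 fold change of -0.18 ± 0.36 (SE) that was 0.23 without BALB/c replicate 1. Hsph1 and Hspa8 ranked the BALB/c libraries alike, and their ratio was steady within it, at 0.611, 0.555 and 0.577 in BALB/c and 0.772, 0.662 and 0.755 in SKG, without overlap. This ratio was picked after values had been seen and was not tested.

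**Figure D3:**
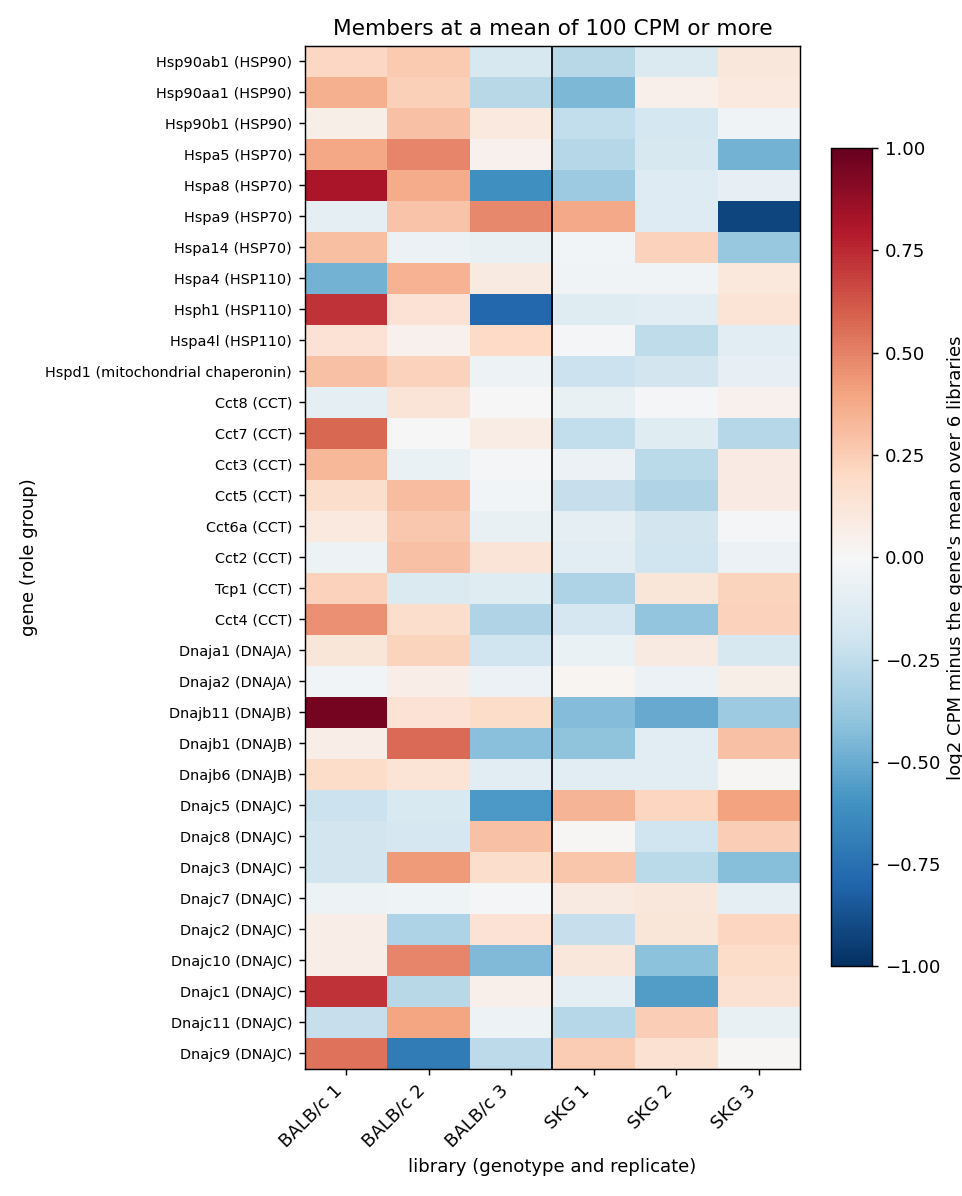
Colours give log2 CPM of each of 33 members with a mean of at least 100 CPM, minus the gene's own mean over the 6 libraries, with genes in rows by role group and libraries in columns. Red cells gather in BALB/c replicates 1 and 2; BALB/c replicate 3 is blue for Hspa8 and Hsph1, and Dnajc5 is blue in BALB/c and red in SKG.

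Of the 33 members at 100 CPM or more, BALB/c replicate 3 was the lowest of its genotype for 16 and the highest for 5, and SKG replicate 3 was the highest of its genotype for 23 and the lowest for 8. By contrast, BALB/c replicate 2 had the highest value of all 6 libraries in 14 members and BALB/c replicate 1 in 13, whereas the SKG replicates 1 to 3 had it in 0, 1 and 2. The lowest of the 6 values was in SKG replicate 2 for 10 members, SKG replicate 1 for 7, SKG replicate 3 for 6 and BALB/c replicate 3 for 6.

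CCT, the cytosolic chaperonin, was built of 8 subunits that were all expressed. Their sum was 5405, 5005 and 4550 CPM in BALB/c and 4146, 4147 and 4675 CPM in SKG, 13.3% lower in the mean, with overlap between BALB/c replicate 3 and SKG replicate 3 that was absent on library totals. By sign 7 of 8 subunits were lower. Cct7 had 1157, 781 and 820 CPM in BALB/c and 658, 718 and 640 CPM in SKG without overlap, a log2 fold change of -0.45 ± 0.18 (SE), an unadjusted edgeR p of 0.0426 and an adjusted p of 0.894. Its value was -0.25 without BALB/c replicate 1. Cct2 had 414, 527 and 470 CPM in BALB/c and 398, 374 and 412 CPM in SKG, apart by a margin of few CPM. Cct3, Cct4, Cct5 and Cct6a overlapped, with log2 fold changes of -0.17, -0.23, -0.30 and -0.20. Cct8 (-0.03 ± 0.12) and Tcp1 (0.03 ± 0.19), the alpha subunit, were near 0 and took the other sign in at least 1 alternative setting. The subunits are equal in number in the assembled ring. Per kilobase of annotated exon, their RNA ran from 82.7 CPM for Cct4 to 271 for Cct8 in BALB/c. The length joined all annotated exons of a gene, 6778 bases for Cct7 and 3088 for Cct8, so these values do not give the proportions of the transcripts. Before division by length, Cct7 stood above Cct8 in BALB/c, at a mean of 919 against 837 CPM.

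J-domain genes held the only members above BALB/c in every SKG library. Dnajc5, on chromosome 2 at 181520485 to 181555133, encodes the cysteine string protein that works with HSC70 in vesicle exocytosis. It had 235, 245 and 183 CPM in BALB/c and 345, 317 and 360 CPM in SKG. The gap between the genotypes was wider than the range within either, with a log2 fold change of 0.62 ± 0.16 (SE), an unadjusted edgeR p of 0.0074 and an adjusted p of 0.686. Dnaja3, on chromosome 16 at 4639989 to 4707695, encodes the mitochondrial J-domain protein Tid1, which works with mortalin. It had 66.6, 57.0 and 81.0 CPM in BALB/c and 101, 91.4 and 115 CPM in SKG, with a log2 fold change of 0.59 ± 0.23 (SE), an unadjusted edgeR p of 0.041 and an adjusted p of 0.88. The nearest libraries, BALB/c replicate 3 and SKG replicate 2, differed by less than the range within BALB/c.

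Dnaja1, a cytosolic partner of HSC70, was at 384, 412 and 308 CPM in BALB/c and 337, 377 and 317 CPM in SKG (log2 fold change -0.10 ± 0.16, SE). Dnajb1, the heat-inducible HSP40, was at 245, 347 and 176 CPM in BALB/c and 178, 218 and 288 CPM in SKG (-0.17 ± 0.30, SE), and without BALB/c replicate 2 its log2 fold change was 0.11. Neither separated the genotypes. Dnajc17, a nuclear protein with an RNA-binding domain, was scarce at 8.24, 9.11 and 15.7 CPM in BALB/c and 5.78, 7.28 and 0.332 CPM in SKG. Its log2 fold change of -1.30 ± 1.17 (SE) was -0.74 without SKG replicate 3 and -0.94 without BALB/c replicate 3. It was further below 0 when any other library was left out. Summed over the families, DNAJA was 749 ± 53.3 CPM in BALB/c and 761 ± 8.70 CPM in SKG, DNAJB 839 ± 154 and 635 ± 43.2 CPM, and DNAJC 1927 ± 77.8 and 1966 ± 39.0 CPM (SD, n = 3 each). The largest part of the difference in DNAJB was Dnajb11, of the endoplasmic reticulum. Other members at 100 CPM or more not described by themselves (Hspa14, Dnaja2, Dnajb6, Dnajc1, Dnajc2, Dnajc7, Dnajc8, Dnajc9, Dnajc10 and Dnajc11) overlapped between the genotypes, with log2 fold changes from -0.37 for Dnajc1 to 0.19 for Dnajc9. Dnajc15, a mitochondrial import protein, was at 56.2, 35.6 and 34.6 CPM in BALB/c and 28.0, 14.8 and 23.7 CPM in SKG, without overlap, and Hspa4l of the HSP110 group was at 203, 189 and 210 CPM in BALB/c and 182, 153 and 170 CPM in SKG. The log2 fold change was -0.93 ± 0.45 (SE) for Dnajc15 and -0.25 ± 0.15 (SE) for Hspa4l.

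**Figure D4:**
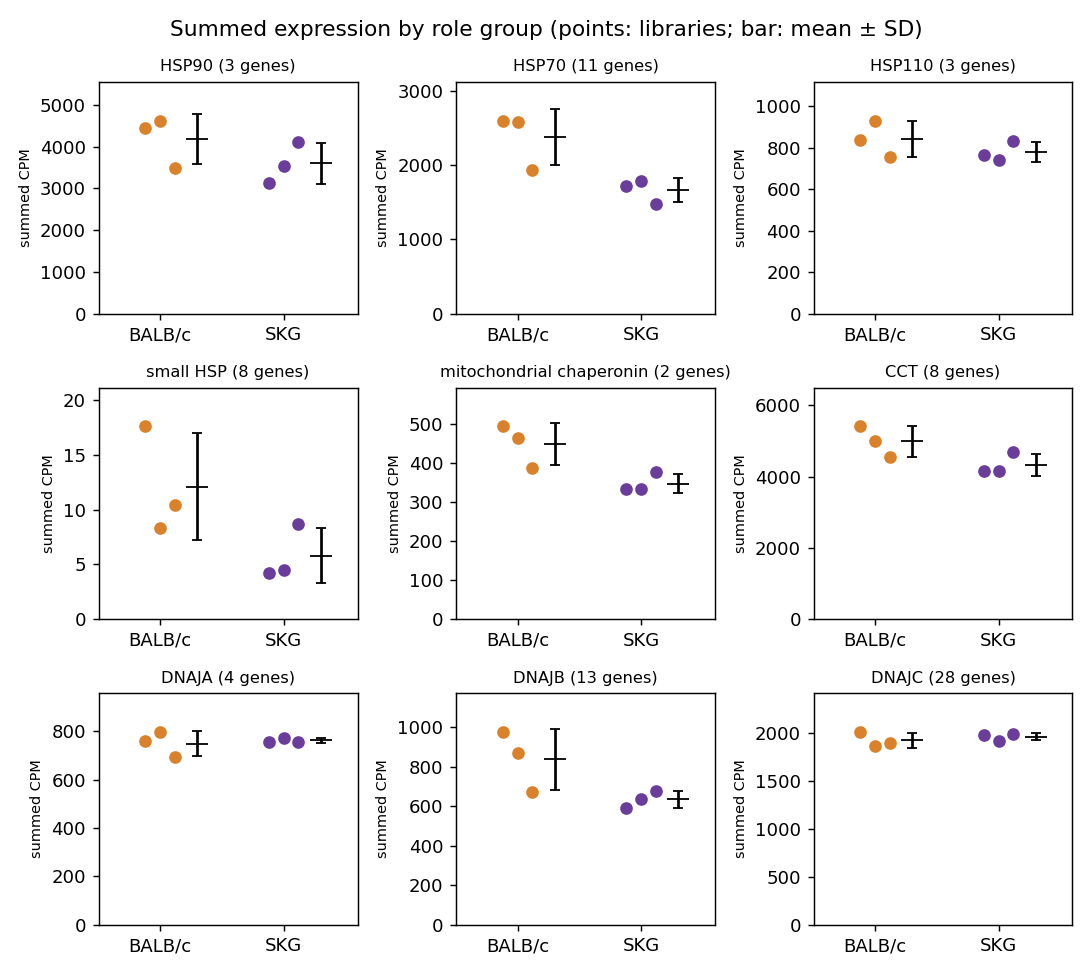
Summed CPM of each role group, with 1 point per library, orange for BALB/c and purple for SKG, and the mean ± SD of 3 libraries beside them on axes that start at 0. The HSP70 and mitochondrial chaperonin sums do not overlap between genotypes, DNAJA and DNAJC are level, and the others overlap or lie close. Hspa5 is the largest part of the HSP70 sum, and of the 7 tested HSP70 genes only 2, Hspa5 and Hspa13, lie apart.

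**Figure D5:**
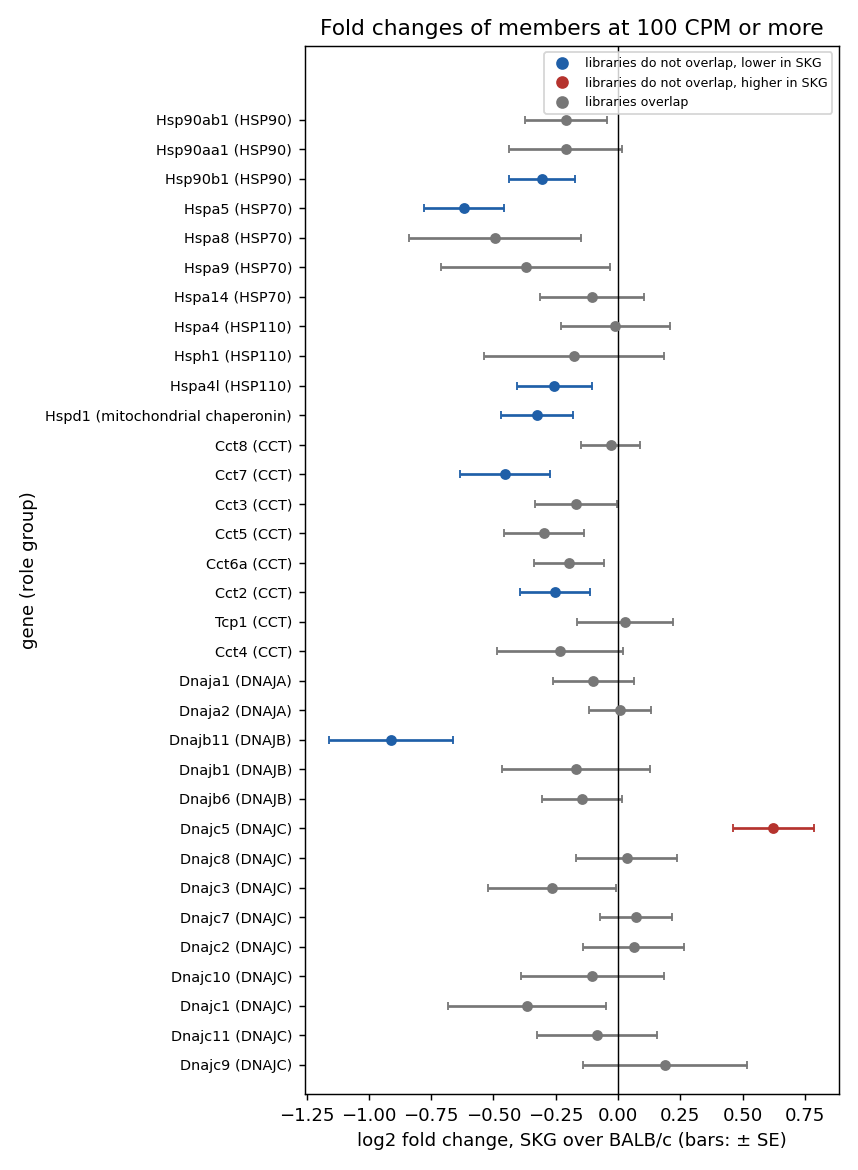
Log2 fold change, SKG over BALB/c, from edgeR with its standard error for each of 33 members at 100 CPM or more, ordered by role group. Blue marks the 7 members whose libraries lie apart and lower in SKG, red the 1 that lies apart and higher (Dnajc5), and grey those that overlap.

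Scatter within a genotype set what could be seen. The CV within genotypes had a median of 15.8% for the 33 members at 100 CPM or more, from 4.33% for Dnaja2 upward, and of 60.6% for the 32 tested members below that level. Of 66 members with at least 100 reads in an SKG library, 5 had 0 reads in another SKG library, and of 64 in BALB/c, 3 had. For most genes at low level a difference of the size of that in Hspa5, 34.8%, was smaller than the scatter between libraries of a genotype.

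The partners of these chaperones, a list of 56 co-chaperones, heat shock factors and folding helpers of which 48 were tested, were read from the same fit. With edgeR 0 were called. By sign 30 were lower and 18 higher, with a median log2 fold change of -0.19, and at an unadjusted p under 0.05 2 were lower and 1 higher. Over all genes 51.0% were lower by sign, with 2.38% lower and 3.07% higher at that p. Pfdn6, a subunit of prefoldin, which hands nascent actin and tubulin to CCT, stood at 70.0, 67.1 and 60.4 CPM in BALB/c and 33.2, 37.4 and 42.8 CPM in SKG (log2 fold change -0.80 ± 0.27, SE; edgeR adjusted p = 0.834). Ahsa2, a homologue of the HSP90 ATPase activator Aha1, stood at 53.6, 74.5 and 58.9 CPM in BALB/c and 35.8, 35.8 and 33.3 CPM in SKG (-0.83 ± 0.29, SE; edgeR adjusted p = 0.834). DESeq2 called both of these genes, with and without shrinkage. Fkbp5, an HSP90 co-chaperone of steroid receptors and a glucocorticoid target, stood at 65.5, 44.5 and 52.6 CPM in BALB/c and 79.3, 134 and 287 CPM in SKG, with a log2 fold change of 1.62 ± 0.48 (SE; edgeR adjusted p = 0.815) and a wide spread within SKG. Hsf1, the heat shock factor, overlapped, from 104 to 184 CPM in BALB/c and 169 to 180 CPM in SKG. Hyou1, the large HSP70 relative of the endoplasmic reticulum, was at 102, 173 and 122 CPM in BALB/c and 126, 161 and 111 CPM in SKG, a log2 fold change of 0.01 ± 0.26 (SE). These last genes were added after their values had been seen.

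Genes that react to handling of cells were lower in SKG as a sum as well. The summed CPM of 12 stress and immediate early genes was 1857 to 2333 in BALB/c and 1201 to 1655 in SKG, with Atf3 at 0 in every library and Fosb and Ier3 under 1 CPM. At an unadjusted edgeR p under 0.05, 3 of the 12 differed, where 2.38% of all genes were lower and 3.07% higher. Ier2 and Zfp36 were lower in SKG in all libraries, Jun was higher, and Fos and Dusp1 overlapped. Of the 6 stage 0 markers, Cd69 and Egr2 were lower in every SKG library. The part of these differences in those of the chaperones was not tested, and in pooled cells fewer cells with a gene and less RNA of it per cell cannot be told apart.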

How the data were processed

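The authors aligned 50-nt reads to GRCm38 with HISAT2 2.1.0, unstranded, and counted those on exons with featureCounts (Subread 1.4.4), keeping alignments of mapping quality 10 or more. The deposited table holds raw counts per gene, with no normalization or filter. A table of the authors' own DESeq2 1.14.1 comparison (fold changes, p-values) was not used. The labels and the paper's methods name different amplification kits, and this was not settled here.

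The analysis used edgeR 4.0.16 in R 4.3.3. All 6 libraries entered one fit without covariates, with filterByExpr, TMM and the quasi-likelihood F test, and Benjamini-Hochberg adjustment ran over 12312 genes. A gene was called at an FDR under 0.1 and at least 1.5-fold. Alternatives were DESeq2 1.42.0, limma-voom (limma 3.58.1), other scalings and filters, replicate blocks and leaving out each library. The fits were tested on simulated data. Totals were 37176544 to 43115544 reads. Positions and exon lengths came from GENCODE M21 (GRCm38) by symbol, for 80 of 80 members.

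The rule for members and the lists were chosen with earlier results of these data known. The value of 1 marker gene is not reported here. Named members were core chaperones, those at an unadjusted p under 0.05, those whose libraries did not overlap with an absolute log2 fold change of at least 1, the 10 most abundant and any called by DESeq2. Other genes named, among them Hspa4l, Dnajc15, Dnajc3, Dnajb9, Dnajc1, Dnajc10, Dnajb6, Dnaja2, Hsf1 and Hyou1, were chosen after their values were seen, as was the stress element of the endoplasmic reticulum.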

Additional observations from a re-analysis of the deposited data

How the results depend on the processing

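No member was called under any of the alternatives (other scalings, no filter, a stricter filter, DESeq2 with and without shrinkage, limma-voom, a block for the title or library number, leaving out each library, the FDR alone). Over all genes, 2 were called with no filter, 370 by DESeq2 without shrinkage and 231 with it. Every other alternative called 0 of all genes, so that no member could be called there. Of the partner genes 2 were called by DESeq2 in both forms, against 0 by edgeR. The number of members at an unadjusted p under 0.05 was 6, and 4 to 9 with 1 library left out. The replicate numbers did not pair the libraries, since residual correlations were -0.145 to 0.00289, and with the replicate block it was 3 for the title numbers and 1 for the library numbers, in fits with fewer residual degrees of freedom. Members apart and lower numbered 11 in the main setting, 9 with median-ratio factors and 12 with library size alone. With 1 library left out, members apart and lower numbered 11 to 20 and those apart and higher 2 to 5, in comparisons of fewer libraries that separate more easily. The share of all genes was not counted in these alternatives. The median log2 fold change of members stayed below 0 throughout, from -0.25 to -0.09.

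Of 390 values of 26 named members under alternatives, 18 in 5 genes changed sign. Hspa4 was 0.00596 with median-ratio factors, 0.0099 with DESeq2 without shrinkage and 0.00949 with it, 0.0311 with limma-voom, 0.0265 with the title-number replicate block and 0.0998 with the library-number replicate block. Tcp1 was -0.00800 with library size alone. With 1 library left out, Hspa4 ran from -0.20 to 0.17, Tcp1 from -0.0637 to 0.17, Cct8 from -0.076 to 0.0227, Dnajb1 from -0.37 to 0.11 and Hsph1 from -0.48 to 0.23. For these genes the cause was not tested. The other 21 kept their sign. About 1000 sorted cells per sample and PCR copies limit the precision of low genes.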
